A study of Mus musculus with 12 samples.

Results

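The 10 enzymes described here turn cholesterol into primary bile acids in the hepatocyte. They were taken by name from textbook steps of the pathway (*Cyp7a1*, *Cyp7b1*, *Cyp8b1*, *Cyp27a1*, *Cyp39a1*, *Hsd3b7*, *Akr1d1*, *Amacr*, *Acox2* and *Baat*), out of 19938 genes that could be read from the arrays. Earlier results of these data were known when the 10 were chosen. Each of the 10 had exactly 1 probe set that named it alone. Their mRNA was measured in whole liver of mouse pups killed at postnatal day 2 (P2), 6 *Ppara*+/+ and 6 *Ppara*-/-, with 3 males and 3 females of each genotype and 1 array per pup. *Ppara* encodes a lipid-sensing nuclear receptor, and the *Ppara*-/- pups lack it in every tissue, not in the liver alone. The pups were born to crosses of heterozygous parents, so that both genotypes shared litters, in litters limited in size to hold access to milk alike, and were still suckling. The sample labels name the strain SV129, whereas the paper describes a C57BL/6 background. The paper took the arrayed RNA of each genotype from 3 litters. No label ties a pup to its litter, and shared litters therefore could not enter the tests. These weigh differences against the scatter of single pups, and so treat litter mates as independent.

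Bile acids are made along a pair of routes. In the classic route *Cyp7a1* adds the first hydroxyl group to cholesterol, and this step sets the rate. In the alternative route *Cyp27a1* oxidises the side chain first and *Cyp7b1* follows. *Cyp8b1* adds the 12α-hydroxyl group, and so decides how much of the product is cholic acid rather than chenodeoxycholic acid. The side chain is then shortened in the peroxisome and the acid is joined to taurine or glycine before export. In adult liver, bile acids returning from the gut repress *Cyp7a1* and *Cyp8b1* through the receptor FXR, its target SHP and the intestinal hormone FGF15.

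Promoter letters of the 2 members with the largest genotype differences are given first, *Cyp8b1* and *Akr1d1*, so that the sequence stands beside the values. Also shown is *Cyp2c70*, which turns chenodeoxycholic acid into the muricholic acids of mice and whose mRNA fell. Each is the 250 bases before the RefSeq start of the gene, from GRCm38.p6, read 5′ to 3′ on the strand of the gene. The sites are chr9:121916306-121916555 on the minus strand for *Cyp8b1*, chr6:37529923-37530172 on the plus strand for *Akr1d1* and chr19:40187287-40187536 on the minus strand for *Cyp2c70*. Capitals mark the nuclear receptor hexamer AGGTCA, or TGACCT where it lies on the opposite strand.
Cyp8b1: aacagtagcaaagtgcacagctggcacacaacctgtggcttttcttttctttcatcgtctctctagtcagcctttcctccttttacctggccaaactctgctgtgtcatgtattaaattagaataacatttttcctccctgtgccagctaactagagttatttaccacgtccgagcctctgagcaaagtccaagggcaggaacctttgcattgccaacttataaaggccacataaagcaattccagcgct
Akr1d1: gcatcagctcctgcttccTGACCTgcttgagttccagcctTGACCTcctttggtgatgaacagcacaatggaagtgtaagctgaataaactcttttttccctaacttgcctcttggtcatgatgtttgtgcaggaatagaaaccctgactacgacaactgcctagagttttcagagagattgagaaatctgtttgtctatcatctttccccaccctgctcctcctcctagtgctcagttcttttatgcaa
Cyp2c70: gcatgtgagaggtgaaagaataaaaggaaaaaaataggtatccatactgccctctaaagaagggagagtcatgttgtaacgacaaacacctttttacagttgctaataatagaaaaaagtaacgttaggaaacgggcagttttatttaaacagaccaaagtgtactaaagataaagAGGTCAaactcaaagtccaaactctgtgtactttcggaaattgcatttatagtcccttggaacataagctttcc
The *Akr1d1* stretch held the hexamer at 232 to 227 and again at 210 to 205 bases before the start, both on the opposite strand. The *Cyp2c70* stretch held it at 74 to 69 bases. The *Cyp8b1* stretch held no exact copy. RefSeq promoters were at hand for 5 of the 10 enzymes (*Cyp8b1*, *Cyp27a1*, *Hsd3b7*, *Akr1d1* and *Acox2*), 6 promoters in all because *Acox2* has a pair of starts. In 1 of the 6 the hexamer was found, and 14.02% of all 32851 promoters of this length hold it on either strand. A direct repeat of AGGTCA with 1 base between the copies, the arrangement that PPARα binds together with RXR, was searched on both strands with up to 2 mismatches. It was in 0 of the 6, against 3.24% of all promoters. Its inverted counterpart, the arrangement FXR binds, was also in 0 of the 6, against 0.959%. The longer AAGGTCA, bound by receptors that act as monomers, was in 0 of the 6, against 4.08%. It contains the hexamer, so these searches overlap. A match or its absence describes these letters alone.

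The values are log2 signals normalised by RMA, so a difference of 1 is a 2-fold change, and a level of 1 gene is not set against that of another. The median signal of an array was 7.16 to 7.20, and any pair of arrays correlated at 0.989 or more. *Ppara* itself was at 10.21 to 10.33 in the *Ppara*-/- livers and at 10.98 to 11.27 in the *Ppara*+/+ livers, lower by 0.89 and without overlap. Where its probes lie relative to the disruption was not stated. Hepatocyte markers all lay above the array medians, with a log2 summed level of 17.26 to 17.30 in *Ppara*+/+ and 17.27 to 17.31 in *Ppara*-/-. A lower level per cell cannot be told apart from fewer cells of a type in whole liver. Genotypes were compared in limma with sex as a term, and a gene is said to have risen or fallen where its Benjamini-Hochberg adjusted p, taken over all probe sets, was under 0.05.

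Of the 10 enzymes, 1 rose in *Ppara*-/- liver, *Cyp8b1*, and 0 fell. Across all genes 1.99% rose and 1.12% fell. At an unadjusted p under 0.05 in limma 2 enzymes were higher (*Cyp8b1* and *Acox2*) and 2 were lower (*Akr1d1* and *Amacr*), against 9.27% and 7.89% of all genes. The exact Mann-Whitney test without adjustment also gave 2 and 2, against 9.28% and 7.58% of all genes. The median log2 fold change was -0.01 over the 10 enzymes and -0.01 over all genes. The other 9 enzymes on this list differed by 0.24 log2 units at most, the size of the *Akr1d1* difference. Further enzymes of the pathway are given below as partners.

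**Figure D1:**
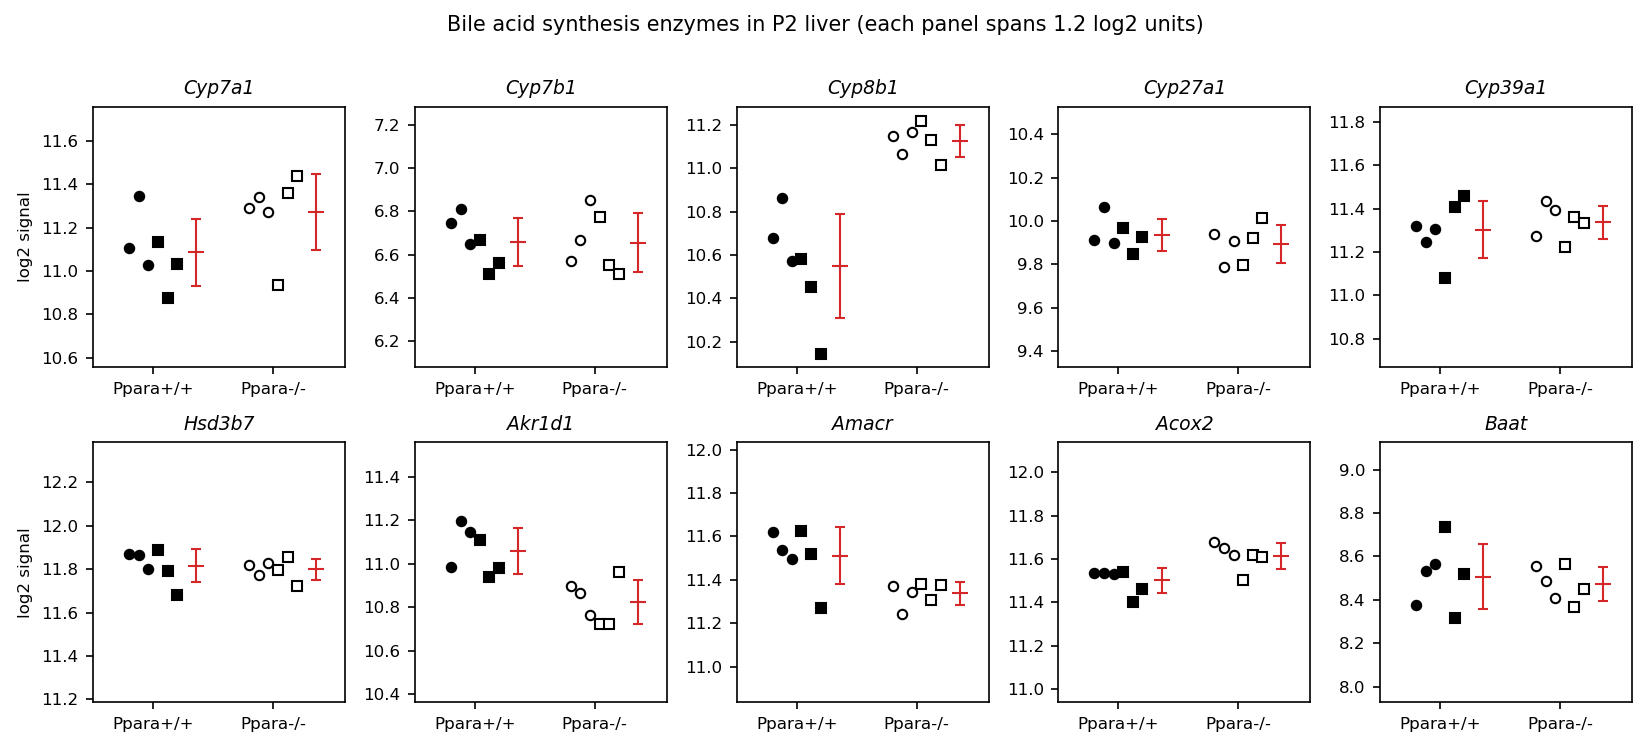
Log2 signal of each of the 10 enzymes on the vertical axis, 1 point per pup. Filled points are *Ppara*+/+ and open points *Ppara*-/-, circles are males and squares females, and red bars give mean ± SD of 6 pups. Only the *Cyp8b1* panel has its genotypes apart, with *Ppara*+/+ up to 10.86 and *Ppara*-/- from 11.01.

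*Cyp8b1*, the sterol 12α-hydroxylase, was at 10.15, 10.58 and 10.86 (lowest, median and highest) in the 6 *Ppara*+/+ livers. In the 6 *Ppara*-/- livers it was at 11.01, 11.14 and 11.22. Every *Ppara*-/- pup lay above every *Ppara*+/+ pup, with 0.15 between the nearest values; genotypes did not overlap in either direction for 4.31% of all genes. The means were 10.55 ± 0.24 and 11.12 ± 0.07 (SD, n = 6 each), a rise of 0.58 (SE 0.0879, 95% confidence interval 0.38 to 0.77) or 1.49-fold (limma adjusted p = 0.0043). The *Ppara*+/+ pups were the more scattered, and their lowest, replicate 9 at 10.15, lay 0.31 under the next. Without that pup the rise was 0.50 (adjusted p = 0.0032 from limma). *Cyp8b1* was called with each of the 12 arrays left out in turn, with rises of 0.50 to 0.63. Markers of Kupffer cells, the macrophages of the liver, had a median difference of 0.20 over 10 genes, 8 of them at an unadjusted p under 0.05. Their log2 summed level was 13.52 to 13.92 in *Ppara*+/+ and 13.79 to 13.94 in *Ppara*-/-. Markers of erythroid cells had a median of -0.17 over 8 genes, 6 of them at an unadjusted p under 0.05, and summed levels of 14.75 to 15.11 and 14.65 to 15.01. The unadjusted shares over all genes were 9.27% higher and 7.89% lower. For liver endothelium the median over its markers was 0.12, with all 8 above 0 and 5 at an unadjusted p under 0.05, and summed levels of 13.27 to 13.44 and 13.40 to 13.51. Markers of stellate cells and granulocytes had medians of 0.10 and 0.07, each with 7 of 8 above 0 and 3 of 8 at an unadjusted p under 0.05. Their summed levels were 13.19 to 13.45 and 13.38 to 13.48 for stellate cells, and 14.41 to 14.59 and 14.52 to 14.65 for granulocytes. Cholangiocyte markers had a median of 0.06 and 0 of 6 at an unadjusted p under 0.05. None of these markers passed after adjustment, and their part in the *Cyp8b1* difference was not tested.

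*Cyp7a1*, the rate-setting 7α-hydroxylase of the classic route, was at 10.88, 11.07 and 11.35 in *Ppara*+/+ and at 10.94, 11.32 and 11.44 in *Ppara*-/- livers. The genotypes overlapped, with 2 *Ppara*-/- pups above the *Ppara*+/+ range. The difference of 0.19 (SE 0.0881, 95% confidence interval -0.01 to 0.38) did not pass (limma adjusted p = 0.354). *Ppara*-/- replicate 10 was the lowest of its genotype for *Cyp7a1* and the highest for *Cyp8b1*. *Cyp7a1* was scattered in both genotypes (SD 0.155 in *Ppara*+/+ and 0.175 in *Ppara*-/-), and *Cyp8b1* in *Ppara*+/+ pups only (0.240 against 0.0738). Pooled over the genotypes, their SDs of 0.165 and 0.178 were higher than those of 97.3% and 97.6% of the genes with a signal within 0.5 log2 units of theirs.

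The enzymes of the alternative route showed no difference that passed. *Cyp27a1*, the mitochondrial sterol hydroxylase, was at 9.85 to 10.06 in *Ppara*+/+ and 9.79 to 10.01 in *Ppara*-/- livers, a difference of -0.04 (95% confidence interval -0.15 to 0.07, limma adjusted p = 0.772). *Cyp7b1*, the oxysterol 7α-hydroxylase, lay at 6.51 to 6.81 and 6.51 to 6.85, below the array medians, where changes are read less well. Its 95% confidence interval ran from -0.14 to 0.13, and the sign of its near-zero difference turned under quantile normalization and median centring. *Cyp39a1*, which acts on an oxysterol formed mainly in the brain, was at 11.08 to 11.46 and 11.22 to 11.43, a difference of 0.03 (-0.11 to 0.18, adjusted p = 0.858 from limma). The widest of these intervals, that of *Cyp39a1*, leaves room for at most 1.13-fold in either direction.

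Past the first hydroxylations, *Hsd3b7* oxidises the 3β-hydroxyl group of the sterol ring and *Akr1d1* reduces its double bond. *Hsd3b7* was at 11.68 to 11.89 in *Ppara*+/+ and 11.72 to 11.86 in *Ppara*-/- livers, a difference of -0.02 whose interval of -0.11 to 0.08 allows at most 1.08-fold. *Akr1d1*, the 5β-reductase, was at 10.94, 11.05 and 11.20 in *Ppara*+/+ and at 10.72, 10.82 and 10.96 in *Ppara*-/- livers. Of the 6 *Ppara*-/- pups, 5 lay below all *Ppara*+/+ pups and the other, replicate 12, overlapped their lower end by 0.02. The log2 difference of -0.24 (SE 0.0586, 95% confidence interval -0.37 to -0.11) missed the threshold (limma adjusted p = 0.0638). Without *Ppara*-/- replicate 12 it was -0.28 and passed (adjusted p = 0.0251 from limma). That was the only call of 12 with single arrays left out, and the adjusted p from limma ran up to 0.154.

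Of the 10 enzymes, those of the peroxisomal and conjugating steps did not pass either. *Hsd17b4*, a further enzyme of side-chain oxidation in the peroxisome, fell and is given below among the pathway partners. *Amacr*, the racemase that turns the side chain into the form that can be oxidised, was at 11.27, 11.53 and 11.63 in *Ppara*+/+ and at 11.24, 11.36 and 11.38 in *Ppara*-/- livers. The groups overlapped through 1 *Ppara*+/+ pup, replicate 9 at 11.27; the other 5 were above all *Ppara*-/- pups. The difference was -0.17 (95% confidence interval -0.31 to -0.04, limma adjusted p = 0.191), and without that pup it was -0.23 and passed (adjusted p = 0.0261 from limma). *Amacr* passed in this 1 case of 12 with single arrays left out, and its adjusted p from limma ran up to 0.336. *Acox2*, the branched-chain acyl-CoA oxidase that acts on the bile acid side chain, was at 11.40, 11.53 and 11.54 in *Ppara*+/+ and at 11.50, 11.62 and 11.68 in *Ppara*-/- livers. In 5 of 6 *Ppara*-/- pups it lay above the *Ppara*+/+ range, by a mean difference of 0.11 (95% confidence interval 0.03 to 0.19, limma adjusted p = 0.174). *Baat*, which joins the acid to taurine or glycine, was at 8.32 to 8.74 and 8.37 to 8.57, a difference of -0.03 (-0.19 to 0.12, limma adjusted p = 0.868).

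**Figure D2:**
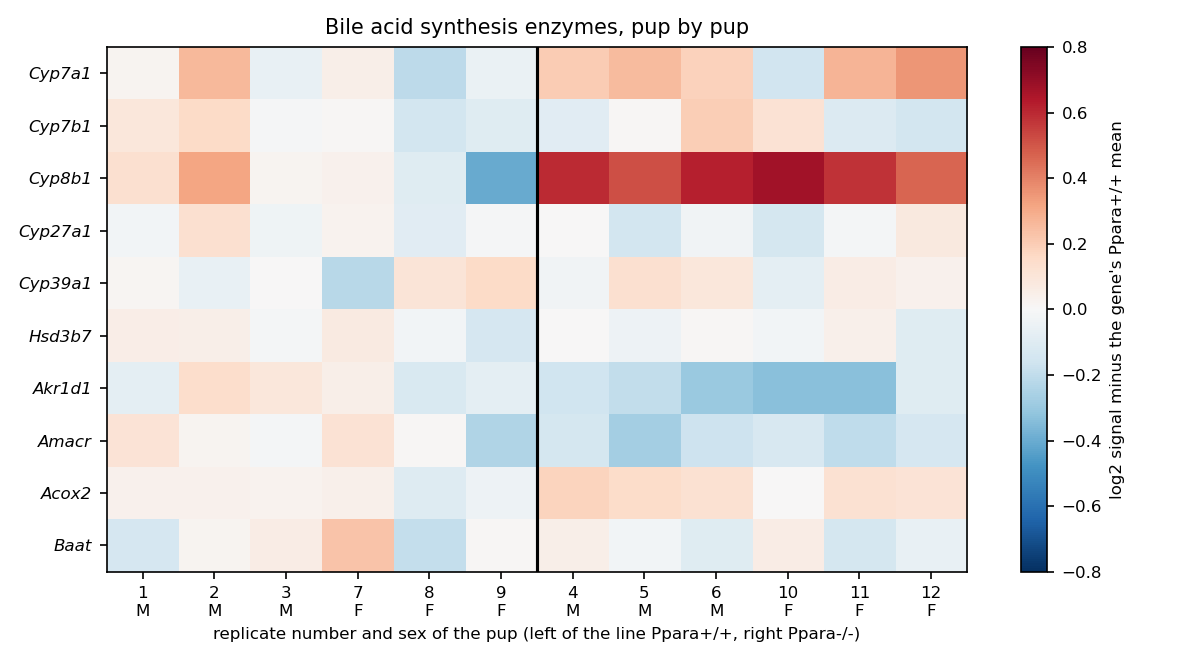
Colour gives the log2 signal of each enzyme (rows) in each pup (columns, by replicate number, M male, F female) minus the *Ppara*+/+ mean of that enzyme. *Cyp8b1* is raised in all 6 *Ppara*-/- pups, and *Akr1d1* and *Amacr* are below 0 in all 6. *Cyp7a1* is above 0 in 5 of 6, with replicate 10 below.

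Sex was examined because each genotype held 3 pups of each sex. In females *Cyp8b1* was at 10.15, 10.45 and 10.58 in *Ppara*+/+ and at 11.01, 11.13 and 11.22 in *Ppara*-/- livers. In males it was at 10.57, 10.68 and 10.86 and at 11.07, 11.15 and 11.17. The genotypes were apart in both sexes, which follows from their separation over all pups. The lowest 2 *Ppara*+/+ pups were females. The rise was 0.73 in females (limma adjusted p = 0.0189), where 0.808% of all genes passed, and 0.42 in males (limma adjusted p = 0.197), where 0.928% passed. The difference between these, 0.30 (95% confidence interval -0.05 to 0.65), did not pass as an interaction in limma. In limma 0 of the 10 enzymes and 0% of all genes passed for an interaction. At an unadjusted p under 0.05 in limma there were 0 of the 10 enzymes, against 357 of all 19938 genes. On simulated arrays of this design the same test recovered 33 of 50 interactions of 2-fold in 1 sex. Smaller interactions, such as the 0.30 log2 units of *Cyp8b1*, were not simulated, so this recovery does not cover them.

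With genotype held, the female minus male difference was below 0 for 9 of the 10 enzymes, as for 48.7% of all genes, and ran from -0.16 (*Cyp8b1*) to 0.01 (*Baat*). None passed in limma, where 0.0401% of all genes did. An unadjusted p under 0.05 in limma was found for 0 of the 10 enzymes, against 555 of all 19938 genes. The smallest unadjusted p from limma was 0.0820, for *Cyp7b1*. *Akr1d1* was lower in *Ppara*-/- livers of both sexes, with differences of -0.21 in females and -0.27 in males. *Amacr* was also below 0 in both, at -0.12 and -0.23, and *Acox2* above 0 in both, at 0.11 and 0.11. No enzyme besides *Cyp8b1* passed within a sex.

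**Figure D3:**
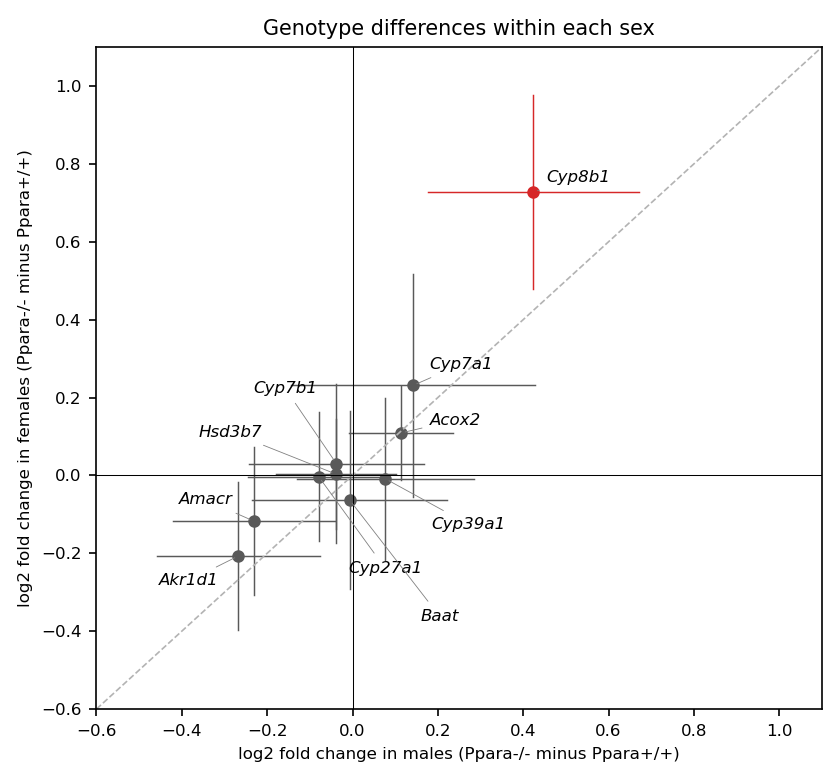
Log2 fold change (*Ppara*-/- minus *Ppara*+/+) in 3 males per genotype (horizontal axis) against that in 3 females per genotype (vertical axis), with 95% confidence intervals and the line of equality dashed. *Cyp8b1*, in red, lies at 0.42 and 0.73, and the other 9 enzymes lie between -0.27 and 0.23 on both axes.

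The genes that work with these enzymes were read from a list of 15 pathway partners, of which 13 had a probe set of their own; *Fdxr* and *Por*, redox partners of the P450 enzymes, did not. Of the 13, 4 fell and 0 rose, against 1.12% and 1.99% of all genes. This list, like those of regulators and transporters below, was drawn up with earlier results of these data known. Such counts beside the shares are description only. *Hsd17b4*, the bifunctional enzyme that follows *Acox2* in side-chain oxidation and also serves fatty acids, was at 11.04, 11.11 and 11.14 in *Ppara*+/+ and at 10.25, 10.31 and 10.34 in *Ppara*-/- livers. The groups were far apart for their spread. Its difference of -0.80 (SE 0.0337, adjusted p = 9.7e-08 from limma) was the largest among the partners.

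*Cyp2c70*, whose promoter is given above, was at 12.13, 12.23 and 12.42 in *Ppara*+/+ and at 11.58, 11.71 and 11.83 in *Ppara*-/- livers. It fell by 0.54 (SE 0.0561, adjusted p = 3.1e-04 from limma), again without overlap. *Cyp8b1* and *Cyp2c70* thus moved in opposite directions in these livers. *Slc27a2*, an acyl-CoA synthetase that can activate bile acid intermediates, was at 13.35 to 13.48 in *Ppara*+/+ and 13.22 to 13.28 in *Ppara*-/- livers and fell by 0.19 (limma adjusted p = 0.0085). *Abcd3*, which carries those intermediates into the peroxisome, was at 11.19 to 11.35 and 10.93 to 11.15 and fell by 0.23, and its genotypes did not overlap (limma adjusted p = 0.0217). With single arrays left out, *Abcd3* was called in 4 of 12 cases (*Ppara*-/- replicates 6 and 12, *Ppara*+/+ replicates 3 and 7), and without any of the other 8 its adjusted p from limma was up to 0.0641. Among the 9 partners that did not pass, *Acot8*, a peroxisomal thioesterase named after its values were seen, had the largest difference, -0.21 with overlapping groups (95% confidence interval -0.34 to -0.09, limma adjusted p = 0.0780). *Scp2*, the peroxisomal thiolase and sterol carrier, differed by -0.09 (limma adjusted p = 0.399), and *Slc27a5*, the bile acid CoA ligase, by 0.01 (95% confidence interval -0.11 to 0.13). The median of the 13 was -0.10.

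**Figure D4:**
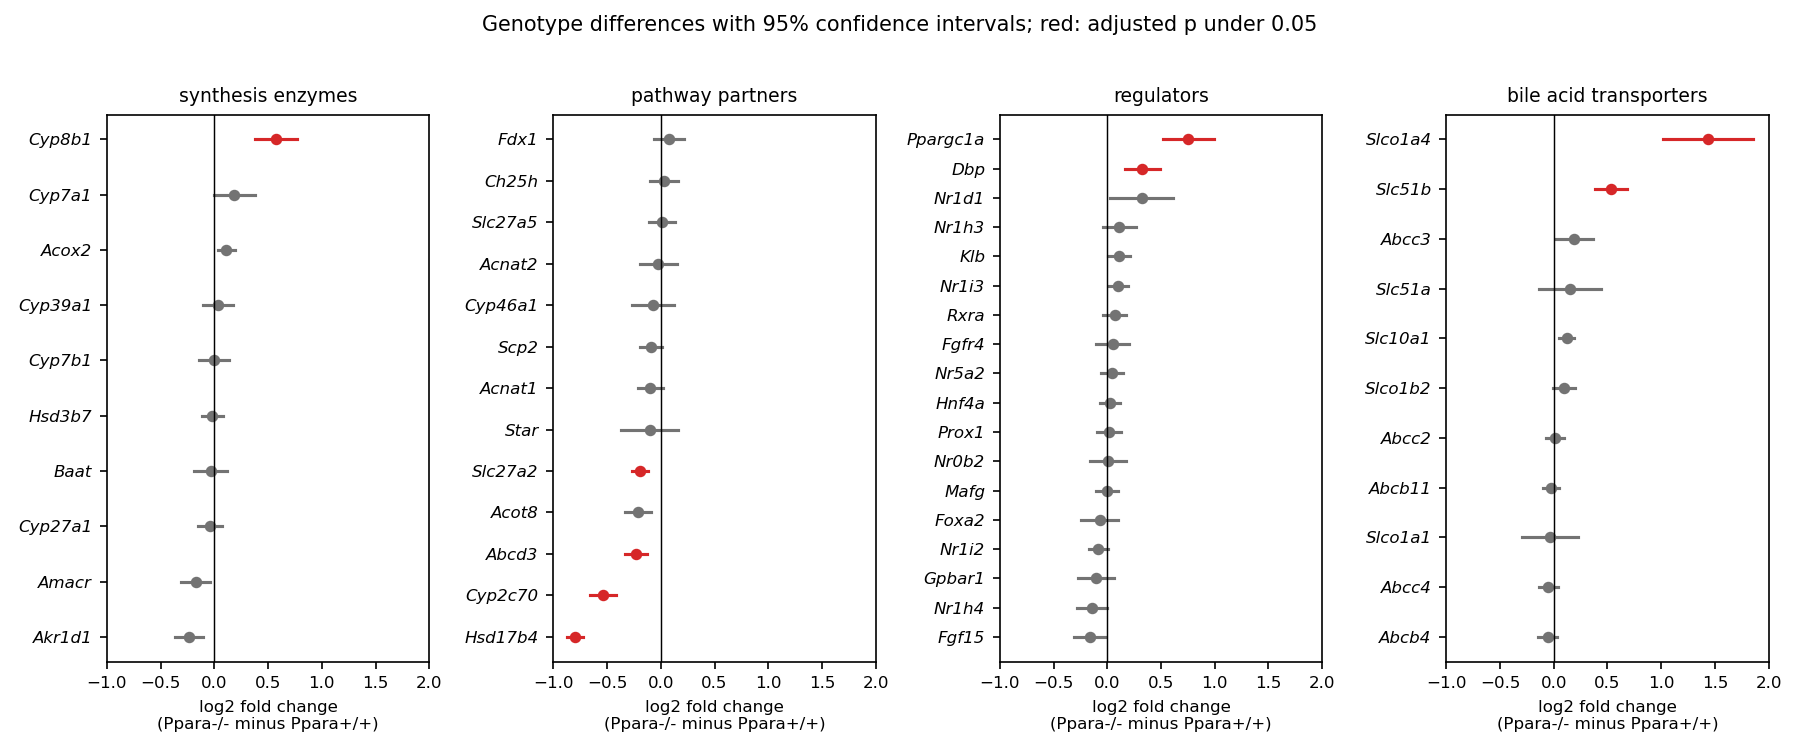
Log2 fold changes (*Ppara*-/- minus *Ppara*+/+, points) with 95% confidence intervals (lines) for the 10 synthesis enzymes, 13 partners, 18 regulators and 11 transporters, 6 pups per genotype. Red marks an adjusted p under 0.05 in limma, which holds for 1, 4, 2 and 2 of them; all partners in red are to the left of 0 and the others in red to the right.

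*Acox3*, a further peroxisomal acyl-CoA oxidase of branched chains, was at 8.28 to 8.42 in *Ppara*+/+ and 8.31 to 8.50 in *Ppara*-/- livers, a difference of 0.05 (limma adjusted p = 0.684). Neither *Acox2* nor *Acox3* passed.

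Regulators of the pathway were read from 20 genes, 18 of them measured. Among these 2 rose and 0 fell, against 1.99% and 1.12% of all genes. *Ppargc1a*, a coactivator of nuclear receptors, was at 8.60, 9.001 and 9.05 in *Ppara*+/+ and at 9.32, 9.69 and 9.93 in *Ppara*-/- livers. It rose by 0.75 without overlap (SE 0.108, adjusted p = 0.0030 from limma). *Ppargc1a* had 2 probe sets of its own, of which the brighter was read, and their mean was also called. The rise was 0.98 in females (limma adjusted p = 0.0067) and 0.53 in males (limma adjusted p = 0.140). Its interaction had an unadjusted p of 0.0296 in limma and did not pass. An unadjusted interaction p under 0.05 was found for 357 of all 19938 genes. *Dbp*, a clock output factor known to act on *Cyp7a1*, was at 8.14, 8.20 and 8.42 and at 8.35, 8.56 and 8.79, and rose by 0.33 with overlapping groups (limma adjusted p = 0.0425). With single arrays left out it was called in 2 of 12 cases (*Ppara*-/- replicate 10, *Ppara*+/+ replicate 7), and the adjusted p from limma ran from 0.0155 without *Ppara*+/+ replicate 7 to 0.107 without *Ppara*+/+ replicate 8. The hour at which each pup was killed is not in the labels.

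No receptor or partner of the feedback loop passed. *Nr1h4*, which encodes FXR, was at 9.62 to 9.91 in *Ppara*+/+ and 9.40 to 9.73 in *Ppara*-/- livers. Its difference was -0.14 (95% confidence interval -0.28 to -0.005, limma adjusted p = 0.319). *Nr0b2*, which encodes SHP, differed by 0.00 (95% confidence interval -0.16 to 0.17). *Fgfr4*, the receptor for FGF15, differed by 0.05 (95% confidence interval -0.10 to 0.20, limma adjusted p = 0.799). Its co-receptor *Klb* differed by 0.11 (95% confidence interval 0.009 to 0.21, limma adjusted p = 0.291). *Nr5a2* (0.04) and *Hnf4a* (0.03), activators of *Cyp7a1* and *Cyp8b1*, had adjusted p-values of 0.734 and 0.823 in limma; the sign of *Hnf4a* and of *Nr0b2* turned under quantile normalization. The interval of *Nr0b2* allows a change of up to 1.12-fold.

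All 11 bile acid transporters on the list were measured. Among them 2 rose and 0 fell, against 1.99% and 1.12% of all genes. *Slco1a4*, an uptake carrier of the basolateral membrane, was at 5.40, 6.01 and 6.72 in *Ppara*+/+ and at 7.28, 7.52 and 7.79 in *Ppara*-/- livers. The groups did not overlap, and the rise was 1.43 or 2.70-fold (SE 0.192, limma adjusted p = 0.0019). Its *Ppara*+/+ values were all under the median signal of the arrays, where fold sizes are read less well. *Slc51b*, the β subunit of the organic solute transporter that exports bile acids to blood, was at 8.19, 8.38 and 8.52 and at 8.72, 8.91 and 9.08, a rise of 0.53 without overlap (limma adjusted p = 0.0013). *Slc10a1*, the main sodium-dependent uptake carrier, was at 13.15 to 13.26 and 13.27 to 13.36; its groups did not overlap but the difference of 0.12 did not pass (limma adjusted p = 0.0840). *Slc10a1* passed with the filter at the 40th percentile of signal (adjusted p = 0.0316 from limma), with a robust variance trend (0.0054) and with array weights (0.0495). *Abcb11*, the canalicular export pump, differed by -0.02 (95% confidence interval -0.10 to 0.05).

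**Figure D5:**
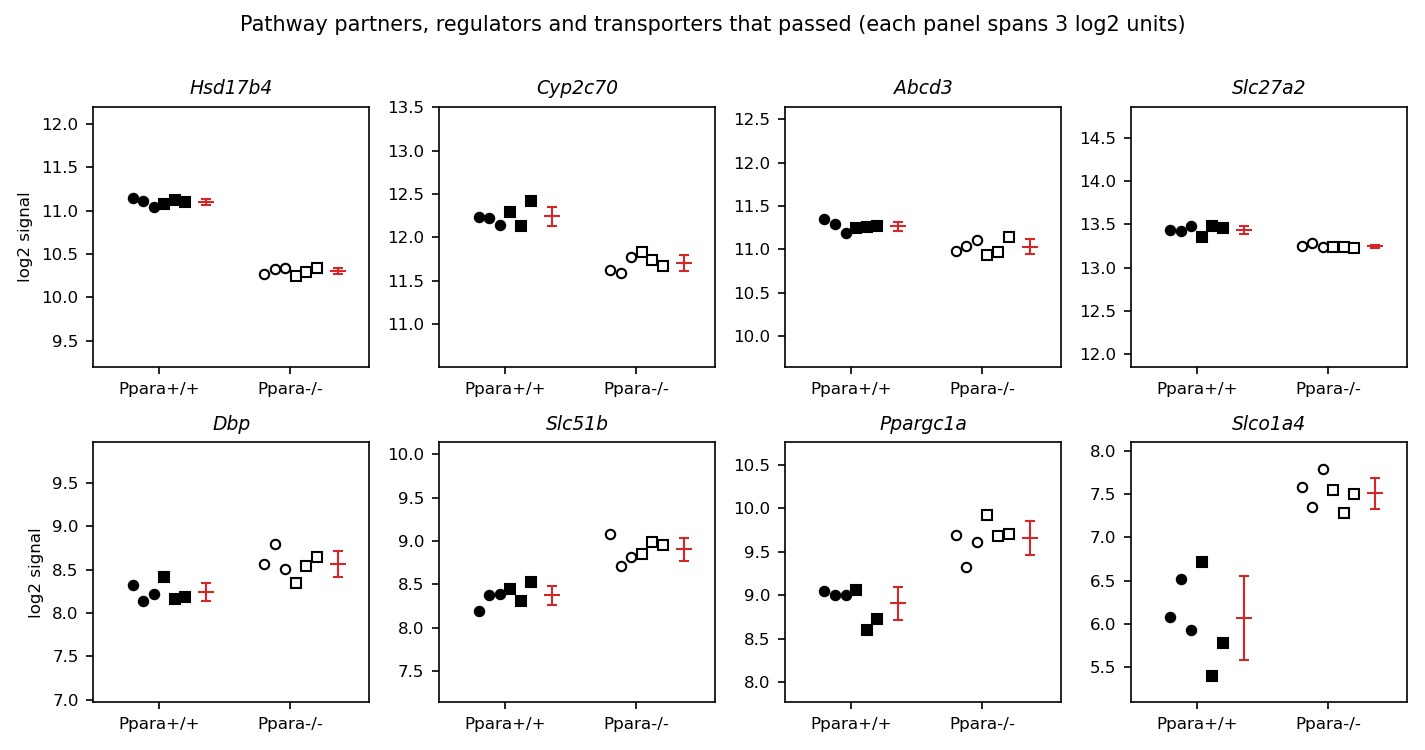
Log2 signal (vertical axis, each panel spanning the same number of units) of the 8 partners, regulators and transporters that passed, 1 point per pup, with symbols as in the plot of the 10 enzymes and red bars for mean ± SD of 6 pups. The top row fell and the bottom row rose in *Ppara*-/- livers, and *Dbp* alone has overlapping genotypes.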

How the data were processed

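Liver RNA of 12 pups was measured on Affymetrix mouse gene arrays. The authors required an RNA integrity number above 8 and normalised by RMA (version not given in the sources used here). The deposited log2 values of 35556 probe sets were used as they are. Of these, 21789 name 1 gene, 1621 several and 12146 none in the platform annotation, and 99.6% of the first kind were found in RefSeq. A gene was read from its brightest probe set that names it alone. Linear models with genotype and sex (9 residual and 2.49 prior degrees of freedom) were fitted per probe set by lmFit and eBayes of limma 3.58.1 in R 4.3.3. Genotype within sex and the interaction came from a fit of 4 groups. Benjamini-Hochberg adjustment ran over all probe sets. On simulated arrays this fit recovered 18, 33, 36 and 48 of 50 probe sets changed 1.2-, 1.3-, 1.5- and 2-fold, with 6 false calls. The number of arrays limits precision.

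The members, the lists and the naming rule were chosen with earlier results of these data known. The rule names the 10 enzymes, *Ppara*, list members that passed (at most 4 per direction and list) and a fixed set of partners, regulators and transporters. Alternatives were a fit without sex, quantile normalization, median centring, a filter at the 40th percentile of signal, probe sets of 1 gene only, array weights, a robust variance trend, a minimum of 1.3-fold, an exact Mann-Whitney test, the mean of probe sets of a gene, and leaving out each array.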

Additional observations from a re-analysis of the deposited data

Results flagged for a closer look

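Single pups far from the other 5 of their genotype were looked for in each of the 20 combinations of an enzyme and a genotype, and 2 were found; chance alone gives about 1 in 20. *Cyp7a1* was at 10.94 in *Ppara*-/- replicate 10, a female, and at 11.27 to 11.44 in the other *Ppara*-/- pups. *Amacr* was at 11.27 in *Ppara*+/+ replicate 9, also a female, and at 11.50 to 11.63 in the other *Ppara*+/+ pups. The *Cyp7a1* difference was 0.25 without *Ppara*-/- replicate 10 (limma adjusted p = 0.152), and the *Amacr* difference was -0.23 without *Ppara*+/+ replicate 9 (limma adjusted p = 0.0261).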

How the results depend on the processing

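Of 660 values of single genes (30 genes under 22 alternatives), 596 kept direction and side of the threshold, 28 lost a call, 15 gained one and 21 turned sign, all 21 uncalled. The cause of each change was not tested. The adjusted exact Mann-Whitney test called 0 enzymes, 0 partners, 0 regulators and 0 transporters in either direction. Its smallest unadjusted p is 0.00216 at 6 against 6. Even that p, as for *Cyp8b1*, adjusted to 0.0691, so this test could call no gene. The calls lost under it, included in the 28, therefore do not weigh against single genes. Unadjusted, the exact Mann-Whitney test called 2 enzymes lower and 2 higher, 5 partners lower, 2 regulators lower and 4 higher. It also called 3 transporters higher, against 7.58% of all genes lower and 9.28% higher. The 1 acyl-CoA oxidase called higher was *Acox2*, already counted among the 2 enzymes. *Akr1d1* made the count of lower enzymes 1 with the 40th percentile filter, with probe sets of 1 gene only, with a robust trend and with array weights; leaving out single arrays gave 0 to 1 lower enzymes, 1 without *Ppara*-/- replicate 12 or *Ppara*+/+ replicate 9. *Slc10a1* made the higher transporters 3 with the percentile filter, with a robust trend and with array weights, and 5 partners were lower with the percentile filter and with probe sets of 1 gene only. With a minimum of 1.3-fold 2 partners were lower and 1 regulator was higher; leaving out single arrays gave 1 to 2 higher regulators. The log2 difference of *Cyp7b1* turned to 0.00744, 0.00192 and 0.00195 under quantile normalization, median centring and array weights. Quantile normalization turned *Nr0b2* to -0.00398 and *Hnf4a* to -0.00837. Leaving out single arrays gave log2 differences from -0.0434 to 0.0283 for *Cyp7b1*, -0.0133 to 0.0706 for *Cyp39a1*, -0.0437 to 0.00254 for *Hsd3b7*, -0.0778 to 0.0153 for *Baat*, -0.0268 to 0.0477 for *Slc27a5* and -0.0466 to 0.0415 for *Nr0b2*; *Cyp39a1*, *Hsd3b7* and *Baat* turned only without *Ppara*+/+ replicate 7. No paired analysis was possible because no label ties a pup to its litter.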
